A study of Mus musculus with 7 samples.

Results

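The genes described here encode the mitochondrial respiratory chain and the ATP synthase, measured in resident macrophages (Tim4+) from the peritoneal fluid of mice of the C57BL/6 strain. Members were chosen by name among the protein-coding rows of the count table: the Nduf genes, Sdha to Sdhd, the Uqcr genes, Cyc1, Cycs, the Cox4 to Cox8 families, the Atp5 genes, and the protein-coding genes of the mitochondrial genome. This gave 112 of 57010 genes, of which 99 were nuclear (98 symbols, since Atp5o has 2 identifiers) and 13 mitochondrial. Poly-A RNA of sorted macrophages was read in 3 libraries from control mice in steady state and in 4 libraries from mice that had received m204 MTO 12 days before. No age is given for either group, MTO is not explained in the labels, and the study's title speaks of colorectal cancer in the peritoneum. Cells were sorted on CD11b, MHC class II and Tim4, a phosphatidylserine receptor of resident macrophages.

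The respiratory chain passes electrons from NADH and succinate to oxygen. Complex I (NADH dehydrogenase) and complex II (succinate dehydrogenase) reduce coenzyme Q, complex III passes the electrons to cytochrome c, and complex IV (cytochrome c oxidase) hands them to oxygen. Complexes I, III and IV pump protons, and complex V (ATP synthase) lets them flow back to make ATP. A few core subunits are encoded in mitochondrial DNA and all others in the nucleus, so that every complex except complex II is built from the products of both genomes. In macrophages the balance between this chain and glycolysis is known to differ between states of activation.

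Libraries held 32077050 to 38586694 counts, so that a floor of 3 counts stood for 0.0777 to 0.0935 CPM (counts scaled to a common library size). Levels below are CPM after TMM scaling, given for replicates 1, 2 and 3 of steady state and 1, 2, 3 and 4 of day 12. Fold changes are day 12 over steady state from edgeR's quasi-likelihood test over all genes, and a gene is said to have risen or fallen where its adjusted p was under 0.05. The labels describe the samples as biological replicates, but not which mice each came from, so p-values reflect only how far these libraries differ. Day 12 replicate 4 stood apart from the other day 12 libraries, and values without it are given beside the results that change. A gene that missed the threshold is not thereby shown to be unchanged. The markers of the sorted cells were present in every library: the lowest level of Adgre1 was 2469 CPM, of Itgam 1242 CPM, of Gata6 170.5 CPM, and of Timd4, the gene of Tim4, 398.8 CPM. They did not stay level. Of 10 markers of resident macrophages, 4 rose (Adgre1, Gata6, Mertk and Itgam) and 3 fell (Csf1r, Timd4 and Lyz2). Over all genes tested, 10.1% rose and 10.2% fell. Timd4 had a log2 fold change of -0.96 (edgeR adjusted p = 0.00484), and Lyz2, lysozyme, went from 42077 ± 818.0 CPM (n = 3) to 4622 ± 3765 CPM (n = 4, edgeR adjusted p = 0.00523). Summed over the 10 genes, the level was 68317 to 71426 CPM in steady state and 32661 to 40491 CPM at day 12. Between the group means, Lyz2 alone fell by more CPM than this sum did, so the lower sum does not describe the other markers. In bulk RNA, a change in the make-up of the sorted cells and a change in RNA per cell cannot be told apart.

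Nuclear genes of the chain were higher at day 12 across complexes, by modest amounts, while the mitochondrial genes were higher in 3 of the 4 day 12 libraries and lower in the fourth. Of the 112 members, 105 had a read and 100 passed the filter on low counts, 91 nuclear and 9 mitochondrial. Among those tested, 34 rose, all of them nuclear, and 1 fell. Over all 15981 genes tested, 20.3% were called, 10.1% higher and 10.2% lower. The share that rose among the tested nuclear members was 37.4%, and 86 of these 91 had a fold change above 0. Their median log2 fold change was 0.36 (1.28-fold), where the median over all genes tested was 0.00. The groups did not overlap in 57 nuclear members that were higher at day 12 and in 2 that were lower, Ndufaf7 and Cox7a2l, while over all genes 16.5% and 18.5% of those tested separated in these directions.

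**Figure D1:**
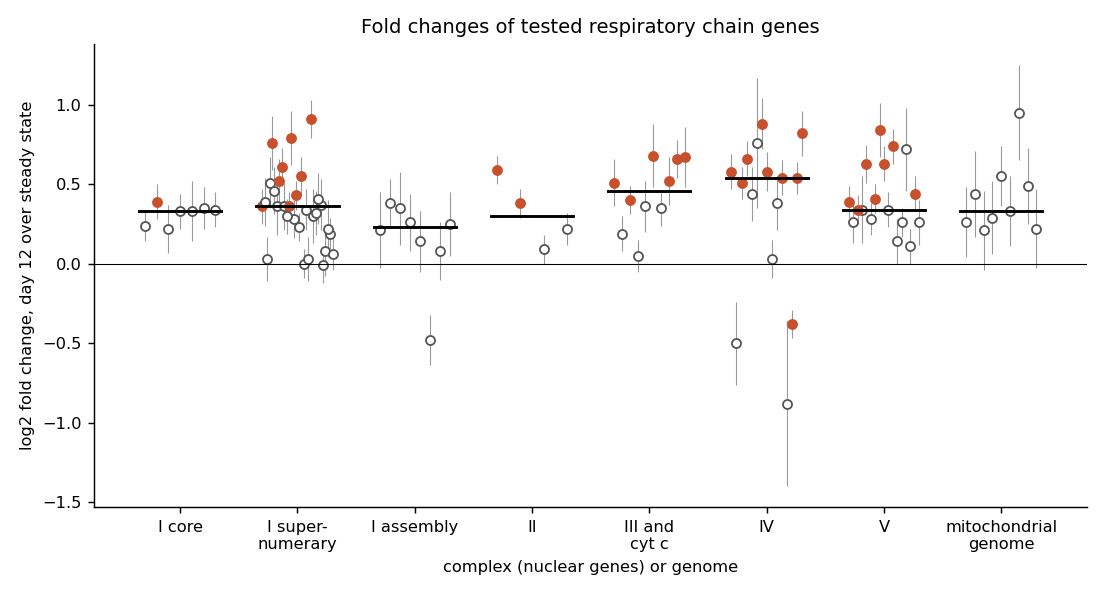
Log2 fold change (day 12 over steady state, y axis) of the 100 tested members, by complex for nuclear genes and together for the mitochondrial genome (x axis). Points are genes, filled where edgeR's adjusted p was under 0.05, thin bars are standard errors and thick lines are medians, all of which lie between 0.23 and 0.54.

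In each library the summed level of the nuclear members was 4294, 4363 and 4165 CPM in steady state and 5079, 5279, 5379 and 5756 CPM at day 12. All 4 day 12 libraries were above all 3 of steady state, and replicate 4 was the highest. The ratio of the group means was 1.257, and 1.227 without day 12 replicate 4. The summed mitochondrial members came to 11957, 12036 and 10994 CPM in steady state and to 15745, 15973, 17341 and 8316 CPM at day 12. Here the first 3 day 12 libraries were above all of steady state and replicate 4 was below all of it. The ratio of means was 1.23, and 1.402 without that library.

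**Figure D2:**
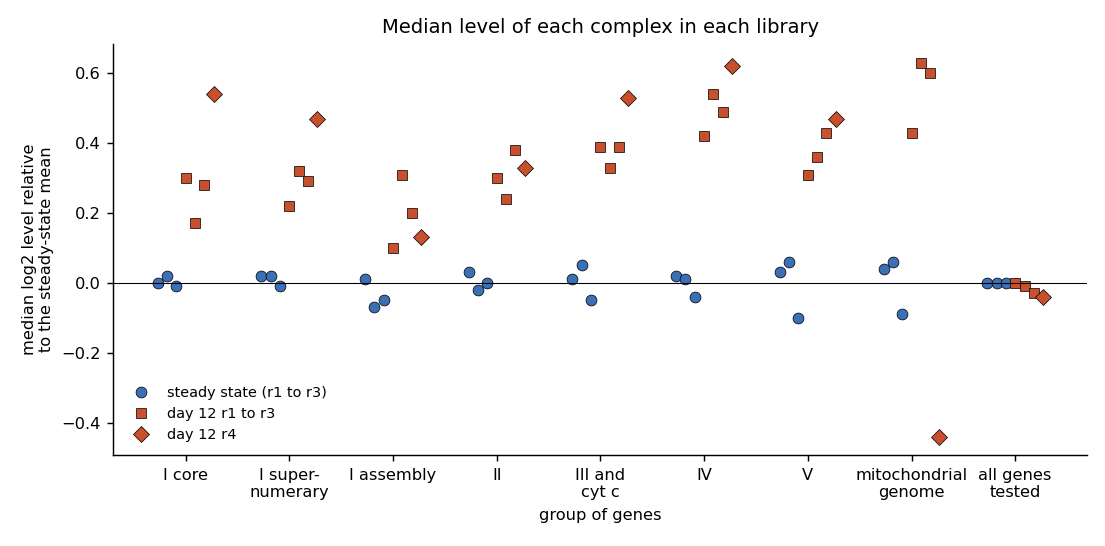
Median log2 level of each group of genes in each library relative to the steady-state mean (y axis), by complex, for the mitochondrial genome and for all genes tested (x axis). Circles are steady state, squares day 12 replicates 1 to 3 and diamonds day 12 replicate 4, which is at 0.47 or above in 5 of the 7 nuclear groups and at -0.44 for the mitochondrial genome.

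The number of calls depended on single libraries. It was 61 higher and 2 lower members without day 12 replicate 4, against 13.9% of all genes higher and 15.3% lower in that fit. With 2 steady-state libraries it was 19, 18 and 14 higher members without replicates 1, 2 and 3, and the count over all genes dropped as well, from 1616 to 961, 899 and 857. All 34 genes that rose also passed without day 12 replicate 4, and 13 of them passed in every one of the 7 fits that left out a library. These 13 were Ndufb1, Ndufv3, Sdhd, Uqcr10, Cox5a, Cox5b, Cox6c, Cox7b, Cox8a, Atp5g3, Atp5k, Atp5md and Atp5o. Another 12 (Ndufs3, Ndufa1, Ndufa3, Ndufa9, Ndufb5, Sdhc, Cyc1, Cycs, Uqcrb, Uqcrq, Atp5h and Atp5j2) lost their call whichever steady-state library was left out, with adjusted p of up to 0.179. Tested against a change of 1.5-fold with glmTreat, 1 member passed, Ndufb1, where 3.81% of all genes passed as higher, and none passed as lower, where 3.23% of all genes did. DESeq2 called 45 members higher and 2 lower, against 13.1% and 12.3% of all genes.

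Complex I takes electrons from NADH. Its 7 nuclear core subunits carry the flavin and the iron-sulfur clusters, and their median log2 fold change was 0.33. Of these 7, 1 rose (14.3%), near the 10.1% of all genes tested that rose. This was Ndufs3, a core subunit of the arm that faces the matrix, at 20.9, 22.1 and 21.2 CPM in steady state and 27.4, 26.3, 26.0 and 32.2 CPM at day 12 (log2 fold change 0.39, SE 0.11, edgeR adjusted p = 0.039). Without a steady-state library its adjusted p was 0.11 to 0.138, and without day 12 replicate 1 it was 0.0694. Ndufv1, which binds NADH and the flavin, stood at 48.0, 43.8 and 44.1 CPM and then at 55.7, 51.1, 56.8 and 65.7 CPM (log2 fold change 0.34, adjusted p = 0.0572, and 0.0294 without day 12 replicate 4). Its groups did not overlap, although it missed the threshold with all 7 libraries. Ndufv2 and Ndufs1, iron-sulfur subunits, had log2 fold changes of 0.33 and 0.35 (edgeR adjusted p = 0.0675 and 0.0813). In both, day 12 replicate 4 was the lowest of its group, and both passed without it (adjusted p = 0.00252 and 0.00223). Without that library 4 of the 7 core subunits rose, where 13.9% of all genes tested did.

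The supernumerary subunits surround this core and have no catalytic centre. Of 30 tested, 9 rose and none fell, with a median log2 fold change of 0.36. Whether they differed from the core subunits was not tested. Ndufb1, a small subunit of the membrane arm (chromosome 12, 101934349 to 101943327 in GRCm39), had the largest fold change of any called member. Its level was 16.5, 18.8 and 18.3 CPM in steady state and 34.5, 36.6, 33.6 and 29.3 CPM at day 12. Every day 12 library was well above the highest of steady state (log2 fold change 0.91, SE 0.12, edgeR adjusted p = 0.000875). Ndufc1, another membrane-arm subunit, went from 10.7, 11.7 and 10.3 CPM to 15.3, 17.6, 17.8 and 24.7 CPM. Replicate 4 was the highest, and the log2 fold change was 0.79 with it and 0.64 without it (adjusted p = 0.0108 and 0.0034). Without steady-state replicate 1 or 3 it missed the threshold (adjusted p = 0.0502 and 0.0575). Ndufv3, next to the NADH-binding subunits, rose from 25.6 ± 2.41 to 39.1 ± 3.79 CPM (SD, n = 3 and n = 4, edgeR adjusted p = 0.00661). Ndufa12 rose from 9.28 ± 0.363 to 13.6 ± 1.03 CPM (n = 3 and n = 4, edgeR adjusted p = 0.0115, and 0.0671 without steady-state replicate 3). At the other end, Ndufb9, Ndufb11, Ndufs4 and Ndufb8 had log2 fold changes of -0.01 to 0.03, with standard errors of 0.09 to 0.14.

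The assembly factors Ndufaf1 to Ndufaf8 help to build complex I and are not part of the finished enzyme. None of the 8 rose or fell by edgeR, and DESeq2 called Ndufaf7 lower. An unadjusted edgeR p under 0.05 was found for 2 of them, and for 5421 of all 15981 genes tested. The median log2 fold change was 0.23. Ndufaf1, which acts on an early membrane module, had 8.18, 7.34 and 6.83 CPM in steady state and 10.7, 9.67, 10.4 and 8.15 CPM at day 12 (log2 fold change 0.38, edgeR adjusted p = 0.103). Replicate 4 lay within the steady-state range. Ndufaf7, a methyltransferase that modifies a core subunit, pointed the other way, with 15.2, 14.4 and 13.6 CPM in steady state and 10.9, 10.4, 12.2 and 7.77 CPM at day 12 (log2 fold change -0.48, SE 0.16, edgeR adjusted p = 0.0619). Without day 12 replicate 4 it passed as lower (log2 fold change -0.36, adjusted p = 0.0332), as it did without replicate 3, and Ndufaf1 and Ndufaf4 passed as higher (adjusted p = 0.0233 and 0.0458).

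Complex II is encoded wholly in the nucleus and also works in the citric acid cycle. Its 2 membrane anchors, which hold the coenzyme Q site, rose. Sdhd stood at 65.2, 62.1 and 61.0 CPM in steady state and at 91.5, 97.1, 99.4 and 91.0 CPM at day 12 (log2 fold change 0.59, SE 0.09, edgeR adjusted p = 0.00213). Sdhc stood at 72.0, 71.4 and 72.9 CPM and then at 88.6, 92.5, 95.8 and 99.1 CPM, with a log2 fold change of 0.38 (SE 0.09, edgeR adjusted p = 0.0161). Both groups were tight and did not overlap, and replicate 4 lay with the other day 12 libraries. The call of Sdhc was lost without any 1 of the steady-state libraries (adjusted p = 0.0728 to 0.0821). The catalytic subunits had smaller fold changes: Sdha, which carries the flavin, had a log2 fold change of 0.22 (adjusted p = 0.181) and Sdhb, which carries the iron-sulfur clusters, one of 0.09 (adjusted p = 0.552). Without day 12 replicate 4, Sdha passed as higher (log2 fold change 0.26, adjusted p = 0.0398). Whether anchors and catalytic subunits differed from each other was not tested.

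Complex III and cytochrome c, the carrier from complex III to complex IV, had 6 of 10 nuclear genes higher, none lower, and a median log2 fold change of 0.45. Uqcr10, a small subunit, stood at 24.7, 27.4 and 26.9 CPM in steady state and at 37.8, 39.6, 39.4 and 49.4 CPM at day 12 (log2 fold change 0.66, SE 0.12, edgeR adjusted p = 0.00523). Uqcrfs1, the Rieske iron-sulfur protein, stood at 52.7, 47.2 and 46.4 CPM and then at 63.6, 60.9, 64.6 and 67.4 CPM (log2 fold change 0.40, edgeR adjusted p = 0.0175). All day 12 libraries of both genes were above steady state, although Uqcrfs1 missed the threshold without steady-state replicate 2 or 3 (adjusted p = 0.0949 and 0.101). Cyc1, the haem-bearing cytochrome c1, stood at 45.2, 47.1 and 42.4 CPM and then at 59.4, 56.9, 58.1 and 83.2 CPM (log2 fold change 0.52, adjusted p = 0.0338). Uqcrq had a similar pattern, with 22.3 ± 1.44 CPM (n = 3) and 35.5 ± 9.44 CPM (n = 4), a log2 fold change of 0.67 and an edgeR adjusted p of 0.0323. In both, replicate 4 was far above the other day 12 libraries, and both passed without it (log2 fold change 0.38 and 0.47, adjusted p = 0.00542 and 0.00527). Without any 1 of the steady-state libraries neither passed, at adjusted p of 0.0941 to 0.136.

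Cycs, which encodes cytochrome c, behaved differently in replicate 4. It stood at 22.8, 24.9 and 18.9 CPM in steady state and at 38.6, 45.2, 34.3 and 24.0 CPM at day 12. The 4 libraries gave a log2 fold change of 0.68 (SE 0.20, edgeR adjusted p = 0.0425), but replicate 4 lay inside the steady-state range. Without it the log2 fold change was 0.83 (adjusted p = 0.00347), and leaving out any other library ended the call (adjusted p = 0.0645 to 0.166). Uqcrb had a similar pattern, with replicate 4 at 35.7 CPM beside 50.2 to 53.8 CPM in the others (log2 fold change 0.51, adjusted p = 0.0408, and 0.0015 without replicate 4). It too was lost without any other library, at adjusted p of 0.0651 to 0.166. The core proteins Uqcrc1 and Uqcrc2 did not pass (log2 fold change 0.35 and 0.19, adjusted p = 0.0548 and 0.235), nor did Uqcrh (0.05, adjusted p = 0.765). Without day 12 replicate 4 both core proteins passed as higher (log2 fold change 0.27 and 0.26, adjusted p = 0.0146 and 0.0181).

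Complex IV reduces oxygen. Of its 15 tested nuclear genes, 8 rose and 1 fell, and the median log2 fold change was 0.54, the highest of the nuclear groups. That ranking holds for the median over genes and not for the summed level. The ratio of group means of the summed nuclear genes was 1.222 here. It was 1.25 for complex I subunits and 1.23, 1.291 and 1.286 for complexes II, III with cytochrome c, and V. Without day 12 replicate 4 it was 1.163 here and 1.21, 1.241, 1.267 and 1.264 in the others. Cox5b stood at 23.8, 22.5 and 23.9 CPM in steady state and at 35.9, 39.9, 38.7 and 51.2 CPM at day 12 (log2 fold change 0.82, SE 0.14, edgeR adjusted p = 0.00299). Cox5a, which binds next to it at the matrix face, stood at 51.5, 53.0 and 53.8 CPM and then at 73.0, 82.8, 71.6 and 88.3 CPM (log2 fold change 0.58, adjusted p = 0.00503). In each gene, all day 12 libraries were above all of steady state. Cox7b rose from 43.8 ± 3.67 to 69.0 ± 6.55 CPM (n = 3 and n = 4, edgeR adjusted p = 0.00357). Cox6c rose from 44.9 ± 2.75 to 65.2 ± 3.46 CPM (n = 3 and n = 4, edgeR adjusted p = 0.00446). Cox8a, a small membrane subunit, rose from 68.0 ± 4.16 to 125.1 ± 27.1 CPM (n = 3 and n = 4, edgeR adjusted p = 0.00509), with a log2 fold change of 0.88 and of 0.73 without day 12 replicate 4. Cox6b1, Cox7a2 and Cox7c were the other members that rose (log2 fold change 0.51 to 0.58). Those 3 calls were lost without steady-state replicate 3 (adjusted p = 0.0506, 0.0534 and 0.0548), and that of Cox7c also without replicate 2 (0.0551).

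Some genes of this complex did not follow. Cox7a2l, a relative of Cox7a2 known for joining complexes III and IV into supercomplexes, was the only member that fell. It stood at 136.0, 135.1 and 136.6 CPM in steady state and at 102.1, 102.4, 106.5 and 106.2 CPM at day 12 (log2 fold change -0.38, SE 0.09, edgeR adjusted p = 0.0133). The spread within each group was small, and replicate 4 lay with the other day 12 libraries. The call was lost without any 1 of the steady-state libraries or day 12 replicate 1, with adjusted p between 0.0512 and 0.0832. Cox4i1, the common form of the largest nuclear subunit, stood at 163.4, 166.8 and 164.3 CPM and then at 151.3, 155.0, 160.1 and 204.9 CPM. Its first 3 day 12 libraries lay below steady state and replicate 4 above it (log2 fold change 0.03, adjusted p = 0.909). Ndufa4, named for complex I but a subunit of complex IV, varied widely between libraries, at 73.3, 74.5 and 71.7 CPM in steady state and 39.7, 77.7, 33.1 and 56.1 CPM at day 12. Replicates 1, 3 and 4 were below and replicate 2 above steady state (log2 fold change -0.50, SE 0.26, adjusted p = 0.205).

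Several subunits of complex IV exist as forms restricted to muscle, lung, testis or hypoxic cells. Of these, Cox8b, Cox8c and Cox7b2 had no read in any library, which allows up to 0.0777 to 0.0935 CPM in each, and Cox4i2, Cox6a2 and Ndufa4l2 did not pass the filter. Cox7a1 and Cox6b2 were tested at mean levels under 1 CPM in both groups and did not pass (edgeR adjusted p = 0.229 and 0.27). No switch towards these forms was detectable at this depth.

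Complex V makes ATP. Of 17 tested genes, 8 rose and none fell, with a median log2 fold change of 0.34. In the F1 head that holds the catalytic sites, 1 of 5 subunits rose, where 10.1% of all genes tested did. This was Atp5b, the catalytic beta subunit. Its level was 370.9, 405.7 and 356.6 CPM in steady state and 474.1, 510.3, 527.1 and 541.6 CPM at day 12 (log2 fold change 0.44, SE 0.11, edgeR adjusted p = 0.0172). It missed the threshold without steady-state replicate 1 or 3 (adjusted p = 0.0817 and 0.102). Atp5a1, the alpha subunit, stood at 426.2, 449.0 and 415.6 CPM and then at 504.2, 515.3, 545.2 and 531.6 CPM. All day 12 libraries of it were above steady state, but it missed the threshold (log2 fold change 0.28, adjusted p = 0.0696, and 0.0215 without day 12 replicate 4).

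Of the 12 other genes of complex V, 7 rose (58.3%), with a median log2 fold change of 0.40. Whether these genes differed from those of the F1 head was not tested. Atp5o, the stalk subunit that joins head and membrane part, stood at 28.2, 28.5 and 25.5 CPM in steady state and at 40.1, 47.7, 46.4 and 48.7 CPM at day 12 (log2 fold change 0.74, SE 0.11, edgeR adjusted p = 0.0017). Atp5g3 is 1 of 3 genes for subunit c, which forms the rotating ring. It stood at 84.4, 83.8 and 73.0 CPM and then at 114.0, 124.5, 124.1 and 134.8 CPM (log2 fold change 0.63, adjusted p = 0.00321). In both genes all day 12 libraries were above all of steady state. The other genes of subunit c were lower in level and did not pass: Atp5g1 had a log2 fold change of 0.14 (adjusted p = 0.521) and Atp5g2, at about 1 CPM, one of 0.72 (adjusted p = 0.0852). Atp5k and Atp5md, small membrane subunits, rose with log2 fold changes of 0.63 and 0.84 (edgeR adjusted p = 0.00638 and 0.00797). The other risers were Atp5j, Atp5j2 and Atp5h (log2 fold change 0.34 to 0.41).

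**Figure D3:**
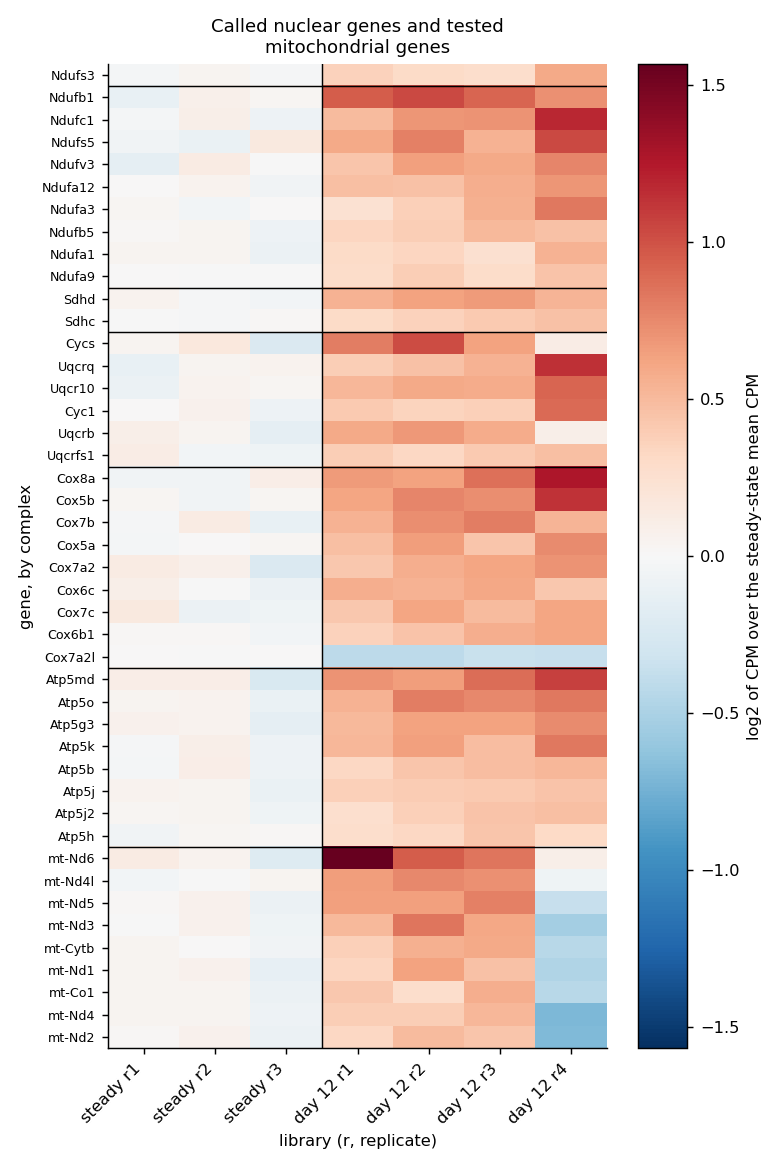
Level of the 35 called nuclear members and the 9 tested mitochondrial members (rows, by complex, the mitochondrial genome last) in each library (columns), as log2 of CPM over the steady-state mean CPM. Cox7a2l is the only called gene that is lower at day 12, and in the last block day 12 replicate 4 is below the other day 12 libraries in 9 of 9 genes.

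The 13 protein-coding genes of the mitochondrial genome are copied from both strands as long RNAs that are cut into single messages. None of the 9 tested rose or fell by edgeR with all 7 libraries and no replicate block. In that fit 2 of them, mt-Nd6 and mt-Nd4l, had an unadjusted edgeR p under 0.05 (0.0116 and 0.0151). So did 5421 of all 15981 genes tested. DESeq2 called these 2 genes higher, limma-voom called none, and edgeR with a filter of at least 1 CPM in 3 libraries called mt-Nd6. Their log2 fold changes ran from 0.21 to 0.95 with a median of 0.33. In 9 of 9, day 12 replicates 1, 2 and 3 were above all of steady state. Replicate 4 was the lowest of the day 12 libraries in 9 of 9 and below all of steady state in 8 of 9, the exception being mt-Nd6. Without replicate 4, 9 of 9 rose, with a median log2 fold change of 0.51.

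Of the complex I subunits encoded here, mt-Nd1 stood at 1358, 1380 and 1207 CPM in steady state and at 1665, 2035, 1801 and 948.1 CPM at day 12 (log2 fold change 0.29, edgeR adjusted p = 0.406, and 0.48 with adjusted p = 0.00964 without replicate 4). mt-Nd5 stood at 1317, 1358 and 1217 CPM and then at 2029, 2031, 2238 and 1008 CPM (log2 fold change 0.49, and 0.70 without replicate 4). In mt-Nd2, mt-Nd3 and mt-Nd4 replicate 4 was likewise the lowest library, with log2 fold changes of 0.21, 0.44 and 0.22, and of 0.42, 0.66 and 0.43 without replicate 4. mt-Nd4l, which overlaps mt-Nd4 on the same strand, had a log2 fold change of 0.55 (edgeR adjusted p = 0.0651). mt-Nd6 is the only protein-coding gene of the light strand and overlaps the end of mt-Nd5 on the other strand. It stood at 41.2, 39.3 and 32.9 CPM and then at 112.1, 72.8, 67.8 and 40.1 CPM (log2 fold change 0.95, SE 0.30, adjusted p = 0.0547, and 1.16 with adjusted p = 0.00849 without replicate 4). mt-Cytb, the haem protein of complex III, went from 1548, 1511 and 1453 CPM to 1946, 2213, 2277 and 1110 CPM (log2 fold change 0.33, and 0.51 without replicate 4). mt-Co1, the catalytic subunit of complex IV, went from 4344, 4360 and 3967 CPM to 5673, 5097, 6279 and 3113 CPM (log2 fold change 0.26, and 0.43 without replicate 4).

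The other 4 mitochondrial genes, mt-Co2, mt-Co3, mt-Atp6 and mt-Atp8, were listed at 0 or 1 read in every library and did not pass the filter. A stretch of mitochondrial DNA copied into chromosome 1 (24650616 to 24655278 in GRCm39, minus strand) holds rows of its own in the table, and these rows held many reads. Gm28661, the copy of mt-Co2, matched its first 681 bases with 0 mismatches in the GENCODE M21 transcripts. Gm10925, the copy of mt-Atp6, had 0 mismatches over 678 bases, and Gm28437, the copy of mt-Co3, 0 over 783 bases. mt-Atp8 shared 0 of its 105 windows of 100 bases with another gene in these transcripts, so these copies do not account for its lack of reads. The first 120 bases of mt-Co2 and of its copy are printed to show that reads from one cannot be placed by sequence.

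mt-Co2: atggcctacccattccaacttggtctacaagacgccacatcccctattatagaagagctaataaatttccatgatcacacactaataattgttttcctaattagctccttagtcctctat
Gm28661: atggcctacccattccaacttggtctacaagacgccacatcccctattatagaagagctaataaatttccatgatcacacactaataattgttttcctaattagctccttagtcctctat

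Next to these, mt-Nd3 differs from its copy Gm28438 by a single base near its start (T3C: the mitochondrial gene has T at position 3, counted from 1 at the start of the gene, and the copy has C), shown in capitals.

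mt-Nd3: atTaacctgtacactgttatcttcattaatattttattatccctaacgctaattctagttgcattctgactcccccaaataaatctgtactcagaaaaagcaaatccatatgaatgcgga
Gm28438: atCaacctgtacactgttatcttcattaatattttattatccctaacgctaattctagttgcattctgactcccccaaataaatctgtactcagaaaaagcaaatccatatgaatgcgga

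The copies held as many reads as well-covered mitochondrial genes. Gm28661 stood at 2404, 2422 and 2222 CPM in steady state and at 3583, 3225, 3932 and 1808 CPM at day 12 (log2 fold change 0.42, edgeR adjusted p = 0.248, and 0.61 with adjusted p = 0.00306 without replicate 4). Gm10925 and Gm28437 had log2 fold changes of 0.20 and 0.25 (adjusted p = 0.647 and 0.494), and of 0.42 and 0.45 without replicate 4 (adjusted p = 0.00805 and 0.0061). In these 3 copies, as in most mitochondrial rows, replicate 4 was below all of steady state. Gm29216 matches bases 1054 to 1545 of mt-Co1 with 6 mismatches, all between bases 1056 and 1066, so the rest of the stretch is identical. It behaved likewise (log2 fold change 0.39, and 0.57 without replicate 4). The sorting of reads between the original and the copy was not the same along the stretch. mt-Nd4l shared 98.5% of its windows of 100 bases with another gene and mt-Nd4 60.8%, yet their copies Gm10222 and Gm28439 held 0 and 14 reads in all 7 libraries together. The treatment of reads with several places is unstated in the sources used, and levels of mt-Co1, mt-Nd3, mt-Nd4 and mt-Nd4l are uncertain for the same reason.

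**Figure D4:**
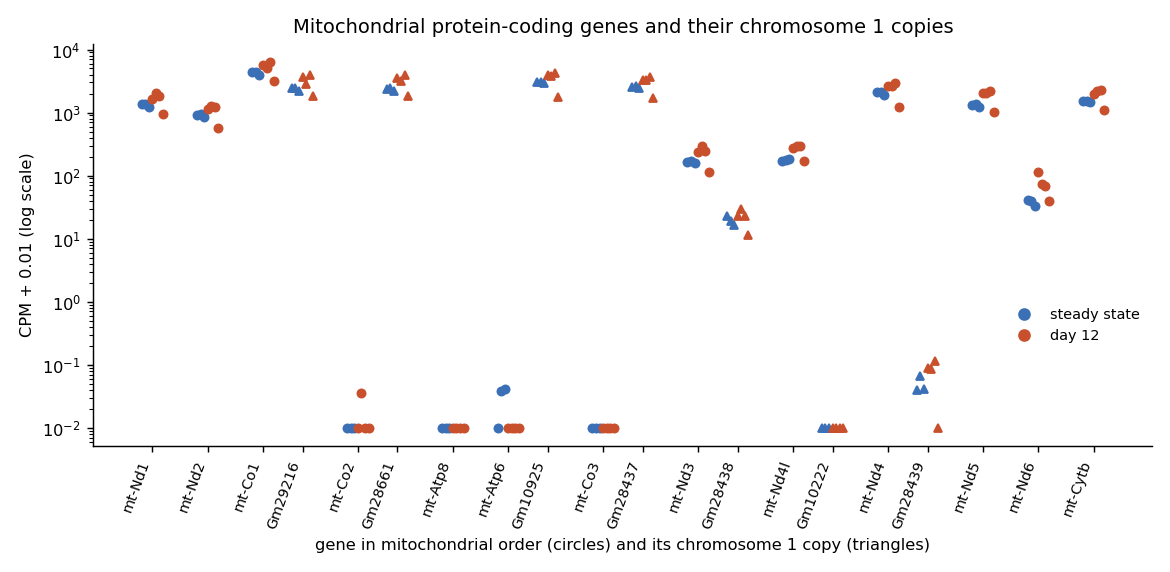
Level in each library (CPM + 0.01, log scale) of the 13 protein-coding mitochondrial genes in genome order (circles) and of their chromosome 1 copies (triangles), steady state in blue and day 12 in red. mt-Co2, mt-Atp8, mt-Atp6 and mt-Co3 sit at the bottom with 0 or 1 read, while the copies of mt-Co2, mt-Atp6 and mt-Co3 lie between 1702 and 4312 CPM.

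The ratio of mitochondrial to nuclear member counts compares the genomes within a library, where scaling cancels. It was 2.79, 2.76 and 2.64 in steady state and 3.10, 3.03, 3.22 and 1.45 at day 12. The first 3 day 12 libraries were thus above all of steady state and replicate 4 was far below. On the log2 scale the day 12 mean minus the steady-state mean was -0.09, with an SD of 0.56 between day 12 libraries and of 0.04 between those of steady state. Without replicate 4 the difference was 0.19, so that the direction of this ratio rests on that library. With the reads of the chromosome 1 copies added to the mitochondrial side, the log2 ratios were 2.38, 2.37 and 2.32 in steady state and 2.58, 2.47, 2.63 and 1.42 at day 12. As a share of all counts, the mitochondrial members took 1.07% to 1.21% in steady state and 1.59%, 1.66%, 1.71% and 0.83% at day 12. The nuclear members took 0.407% to 0.433% and then 0.512%, 0.548%, 0.530% and 0.574%.

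Day 12 replicate 4 also split the nuclear members. It was the highest day 12 library in 51 of 91 tested (56.0%) and the lowest in 26, while over all genes tested it was the highest in 34.8% and the lowest in 34.6%. This deviation varied with base composition. Across 90 nuclear members with a GC content, the log2 ratio of replicate 4 to the mean of the other day 12 libraries had a Spearman correlation of 0.62 with the GC content of the longest transcript. Over 11993 tested genes of the table with a value, it was 0.71. Genes within a library are not independent, so these are descriptions. The same ratio for each of the 3 steady-state libraries gave -0.06 to 0.10 over the same genes and -0.24 to 0.17 over the nuclear members. For day 12 replicates 1, 2 and 3 it gave -0.42, -0.44 and -0.30 over the same genes. Over the nuclear members these were -0.47, -0.49 and -0.31. Replicate 4 is among the libraries that each of these was compared with. In the 30 members of lowest GC content (38.4% to 48.7%) replicate 4 had a median log2 ratio of -0.17, and in the 30 of highest (53.9% to 63.4%) one of 0.47. The 9 mitochondrial genes (33.0% to 41.1%) had a median of -1.06. What part base composition has in the low mitochondrial level of this library was not tested.

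**Figure D5:**
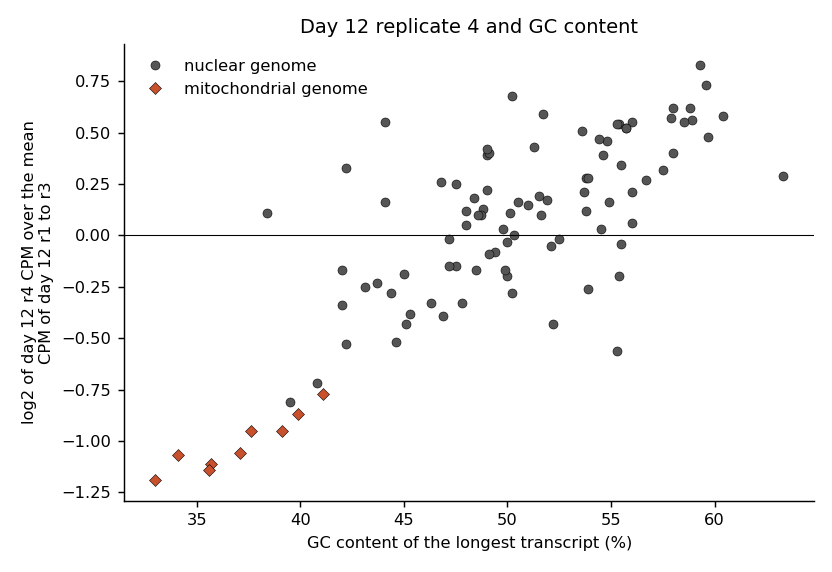
Log2 ratio of the level in day 12 replicate 4 to the mean of day 12 replicates 1 to 3 (y axis) against the GC content of the longest transcript (x axis, %), for 90 nuclear (circles) and 9 mitochondrial (diamonds) members. The 9 mitochondrial members, at 33.0 to 41.1% GC, lie at -0.77 or below.

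The fold changes over all 7 libraries differed less with GC content. The median was 0.35, 0.39 and 0.34 in the nuclear members of lowest, middle and highest GC content, and 0.37, 0.35 and 0.21 without replicate 4. Of the members that rose, 12, 16 and 5 belonged to these sets of 30.

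Levels were compared between genes as CPM per kilobase of exon (lengths from GENCODE M21). mt-Co1 was the highest tested member, with 2734 ± 144 in steady state and 3263 ± 889 at day 12 (SD, n = 3 and n = 4). mt-Nd6 was the lowest tested mitochondrial one, with 72.8 ± 8.36 and 141.1 ± 57.1. mt-Co2, mt-Co3 and mt-Atp6 could not be ranked, since reads of their sequence stood in the rows of the copies. mt-Atp8, which had no read, could not be ranked either. In steady state Gm10925, the copy of mt-Atp6, had a mean of 3020 CPM over 678 bases. For mt-Co1 it was 4223 CPM over 1545 bases, which is less per base. Among nuclear members Cox4i1 led in steady state (215.5 ± 2.30), before Atp5b (197.1 ± 13.2), Atp5a1 (148.2 ± 5.88) and Uqcrh (141.0 ± 4.53). The spreads of the last pair overlapped. At day 12 the order at the top was Atp5b (267.9 ± 15.2), Cox8a (227.5 ± 49.2) and Cox4i1 (219.4 ± 32.7). The wide spread of Cox8a took in the means of the other 2. The tested mitochondrial genes other than mt-Nd6 thus had more reads per kilobase than any nuclear member in both groups, with mt-Nd3 the lowest of them (470.5 ± 22.9 in steady state).

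Reads could also be shared among nuclear genes. Of 98 nuclear members with transcripts, 26 shared any window of 100 bases with another gene and 7 shared over 20%. Among the called genes these were Cycs (24.7%) and Atp5h (21.7%). A well-expressed gene overlapped on the other strand in 24 tested members, of which 8 were called: Ndufb1, Ndufs3, Ndufa3, Ndufb5, Uqcrb, Cox6c, Atp5j and Atp5md. The libraries keep the strand, but no source used here says whether the counting used it, so their values are uncertain.

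Promoters were read for 78 of the 98 nuclear symbols from RefSeq (GRCm38.p6), from 250 bases before to 50 after the start of the gene. Many genes of the chain are known to be driven by the factors NRF1, GABP (an ETS factor) and YY1. The NRF1 motif, searched on both strands as GCGCA, any base, then GCGC, was present in 19 of 78 members (24.4%) and in 5.19% of 27025 genes. The ETS motif CCGGAAGT was in 5 (6.41%, against 4.31%) and the YY1 motif AAGATGGC in 11 (14.1%, against 3.19%). Any of the 3 was in 33 members (42.3%), against 11.7% of all genes. It was in 13 of the 29 matched members that rose (44.8%) and in 20 of the 46 that were tested and not called (43.5%). The 250 bases before the start are shown for 3 genes that rose and hold a motif, picked for that, for Ndufb1, which had the largest fold change among those that rose, and for Cox7a2l, which fell. Motifs are in capitals. The genes are Ndufb1 (chr12:101975739-101975988, minus strand), Sdhd (chr9:50603850-50604099, minus strand), Atp5k (chr5:108434400-108434649, minus strand), Atp5h (chr11:115419920-115420169, minus strand) and Cox7a2l (chr17:83514334-83514583, minus strand).

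Ndufb1: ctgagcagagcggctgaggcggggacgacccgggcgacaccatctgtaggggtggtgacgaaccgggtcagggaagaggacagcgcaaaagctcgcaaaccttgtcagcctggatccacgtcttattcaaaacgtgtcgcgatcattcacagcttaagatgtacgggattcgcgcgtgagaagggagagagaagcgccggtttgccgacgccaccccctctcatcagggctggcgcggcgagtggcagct
Sdhd: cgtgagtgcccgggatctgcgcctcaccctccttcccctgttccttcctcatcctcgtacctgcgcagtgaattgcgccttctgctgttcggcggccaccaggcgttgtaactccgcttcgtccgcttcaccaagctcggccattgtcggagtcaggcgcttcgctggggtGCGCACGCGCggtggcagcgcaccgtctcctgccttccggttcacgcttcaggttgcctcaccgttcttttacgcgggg
Atp5k: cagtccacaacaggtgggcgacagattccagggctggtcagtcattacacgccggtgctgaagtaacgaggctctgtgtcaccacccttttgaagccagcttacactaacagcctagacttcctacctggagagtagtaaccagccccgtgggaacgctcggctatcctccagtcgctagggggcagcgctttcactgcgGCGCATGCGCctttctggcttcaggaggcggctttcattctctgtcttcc
Atp5h: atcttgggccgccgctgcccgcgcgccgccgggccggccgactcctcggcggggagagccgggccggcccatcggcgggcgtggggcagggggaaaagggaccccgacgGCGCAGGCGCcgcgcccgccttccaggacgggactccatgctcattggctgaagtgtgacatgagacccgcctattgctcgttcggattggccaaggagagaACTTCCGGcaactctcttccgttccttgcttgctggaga
Cox7a2l: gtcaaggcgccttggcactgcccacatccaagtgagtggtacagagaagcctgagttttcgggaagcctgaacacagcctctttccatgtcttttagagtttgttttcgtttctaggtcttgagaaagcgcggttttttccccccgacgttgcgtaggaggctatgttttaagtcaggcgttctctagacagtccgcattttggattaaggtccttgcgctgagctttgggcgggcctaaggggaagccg

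Sdhd and Atp5k hold the NRF1 motif, Atp5h holds it together with the ETS motif (as ACTTCCGG on this strand), and Ndufb1 and Cox7a2l hold none of the 3 in this window. A match is a description of the letters, not a site of binding.

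Genes of the same pathway outside the members were read from lists. Their counts stand beside 10.1% of all genes tested that rose and 10.2% that fell. Without day 12 replicate 4 these shares were 13.9% and 15.3%. Of 48 tested assembly factors of the complexes, 7 rose and none fell, with a median log2 fold change of 0.18. Cox17, the copper chaperone of complex IV, went from 19.2, 17.4 and 17.2 CPM to 33.0, 30.0, 33.4 and 32.6 CPM, a log2 fold change of 0.85 (SE 0.10, edgeR adjusted p = 0.000666). Higd1a, a small factor of complexes III and IV, rose with a log2 fold change of 0.99 (adjusted p = 0.00185). In both, all 4 day 12 libraries were above steady state. Of 22 genes of coenzyme Q synthesis and other electron entry, 6 rose and none fell (median 0.18), among them Prodh, proline dehydrogenase, from 19.1 ± 1.83 to 47.7 ± 9.58 CPM (n = 3 and n = 4, edgeR adjusted p = 0.00104), and Aifm1, which imports several subunits (log2 fold change 0.72, adjusted p = 0.00508). Of 9 carriers of adenine nucleotides and protons, 3 rose, and without day 12 replicate 4 Ucp2 passed as lower (adjusted p = 0.00982). Slc25a5, the ADP/ATP exchanger of most cells, went from 158.5, 160.1 and 151.8 CPM to 255.8, 257.9, 257.0 and 259.5 CPM (log2 fold change 0.72, SE 0.09, adjusted p = 0.000843), and Ucp1, the uncoupling protein of brown fat, rose from 1.33 ± 0.226 CPM (n = 3) to 71.9 ± 20.1 CPM (n = 4, edgeR adjusted p = 1.3e-05).

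Expression of the mitochondrial genome needs nuclear factors. Of 17 tested genes of its transcription and replication, none rose by edgeR with all 7 libraries, 1 rose without day 12 replicate 4, and 1 fell, Mgme1, a nuclease of replication (log2 fold change -0.52, edgeR adjusted p = 0.0476). On leaving out a library it still passed only without day 12 replicate 3 or 4 (adjusted p = 0.0273 and 0.0434) and missed the threshold without any other (0.0776 to 0.166). The median was 0.04. Tfam, which packages and activates mitochondrial DNA, stood at 22.0, 22.0 and 21.4 CPM in steady state and at 19.0, 19.5, 18.6 and 12.6 CPM at day 12, with all 4 day 12 libraries below steady state (log2 fold change -0.32, adjusted p = 0.18). Polrmt, the mitochondrial RNA polymerase, had a log2 fold change of 0.09 (adjusted p = 0.706). Of 26 factors of mitochondrial RNA processing and translation, 3 rose, Tbrg4, Prorp and Slirp, and the median was 0.14. That count is near the share of all genes tested that rose, 10.1%. Without day 12 replicate 4, 5 rose, with Mtif2 and Lrpprc added (adjusted p = 0.0152 and 0.0436). Prorp missed the threshold without any 1 of the steady-state libraries (adjusted p = 0.0749 to 0.0978) or day 12 replicate 1 or 3 (0.0608 and 0.0513), and Slirp without steady-state replicate 2 or 3 (0.0634 and 0.0531). Among the mitochondrial rRNA rows, mt-Rnr1 rose from 100.0, 88.2 and 86.9 CPM to 298.0, 226.3, 334.1 and 131.5 CPM (log2 fold change 1.43, adjusted p = 0.00803). There replicate 4 was the lowest day 12 library but stayed above steady state. For mt-Rnr2 the log2 fold change was 0.33 (adjusted p = 0.525, and 0.00738 without replicate 4).

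Of 13 tested regulators of mitochondrial biogenesis, 2 rose and 1 fell, where 10.1% of all genes tested rose and 10.2% fell. Ppargc1b, a coactivator of nuclear genes of the chain, went from 5.90, 3.33 and 4.82 CPM to 17.3, 14.3, 17.3 and 16.8 CPM, a log2 fold change of 1.81 (SE 0.20, edgeR adjusted p = 0.000432). Esrra, the receptor it works with, rose with a log2 fold change of 0.76 (adjusted p = 0.0151), a call lost without any 1 of the steady-state libraries (0.055 to 0.0742). Nrf1, which encodes the factor of the motif above, fell from 29.8, 28.7 and 30.8 CPM to 19.99, 19.4, 19.4 and 19.1 CPM (log2 fold change -0.61, SE 0.09, adjusted p = 0.00205). Without day 12 replicate 4, 3 fell, since Gabpa and Yy1, which encode GABP's binding subunit and YY1, also passed (log2 fold change -0.20 and -0.27, adjusted p = 0.0412 and 0.0258). In both, all day 12 libraries were below steady state with all 7 libraries as well (adjusted p = 0.141 and 0.0786). The few regulators that were called thus went in different directions, and the level of a factor's RNA is not its activity.

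Markers of other cells were low beside the macrophage genes, but some were higher at day 12. The counts of called genes below stand beside 10.1% of all genes tested that rose and 10.2% that fell. Without day 12 replicate 4, 13.9% of all genes tested rose. Summed markers of B cells came to 7.14 to 11 CPM in steady state and 23.6 to 52.8 CPM at day 12 (6 of 10 rose), and those of dendritic cells to 29.6 to 54.9 and 65.4 to 379.4 CPM (none of 3 tested rose by edgeR with all 7 libraries and 1, Cd209a, without day 12 replicate 4). Most of the dendritic cell sum was Cd209a, at 37.1 ± 12.1 CPM (n = 3) and 171.7 ± 142.2 CPM (n = 4), while Zbtb46 stood at 5.32 ± 0.432 and 5.24 ± 1.02 CPM and Flt3, Clec9a and Xcr1 were each at no more than 0.223 CPM in any library. Mesothelial and epithelial markers came to 0.14 to 0.326 and 2.17 to 3.10 CPM, with Cdh1 higher, and Msln, Upk1b and Muc16 at no more than 3 reads in any library. Neutrophil markers came to 1.75 to 2.71 and 1.72 to 3.39 CPM, with Ly6g and Mpo at no more than 3 reads. Of 3 tested, 1 fell, Mmp8, from a mean of 1.07 to 0.0462 CPM (edgeR adjusted p = 0.000233). S100a8 and Elane had log2 fold changes of 0.82 and 0.49 and did not pass (adjusted p = 0.0982 and 0.362). T and NK cell markers came to 0.448 to 0.771 and 0.768 to 3.22 CPM, with 1 of 10 tested, Gzma. It was called higher, but with 0 reads in steady state and 41 at day 12 it passed the filter only through day 12. Cdh1 (13 and 297 reads) and the B cell gene Ebf1 (3 and 77) likewise passed only through day 12, and Mmp8 (107 and 7) only through steady state. The directions of these calls were thus bound up with the filter. Eosinophil markers came to 1.75 to 1.88 and 1.63 to 2.34 CPM, those of mast cells and basophils to at most 0.904 CPM, and those of erythrocytes to at most 0.504 CPM. Of 2 eosinophil markers tested, Siglecf rose (log2 fold change 1.48, edgeR adjusted p = 0.0262) and Ccr3 did not pass (-1.30, adjusted p = 0.0825). Genes that respond to handling and dissociation came to 926.2 to 1205 and 1275 to 1517 CPM, and 7 of 13 rose while 2 fell. The part of these cells, of the changed macrophage markers and of handling in the values of the respiratory chain genes was not tested.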

How the data were processed

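Poly-A RNA of sorted Tim4+ peritoneal macrophages was read in 3 steady-state and 4 day 12 libraries, grouped by their titles. The authors deposited raw read counts per gene, and no unit other than counts was used. Reads had been placed on GRCm39, and the submitters' processing notes name STAR 2.7.11a, featureCounts of Subread 2.0.6, SAMtools 1.10 and DESeq2 1.40.2. Strand setting and multi-mapping are unstated in these sources. Per the labels' protocols, RNA came from 3 biological replicates per condition, while the titles give 4 for day 12.

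Groups were compared with edgeR 4.0.16 in R 4.3.3 (TMM, robust quasi-likelihood fit) over 15981 genes that passed filterByExpr (minimum count 10, minimum total 15), with Benjamini-Hochberg adjustment. The procedure was tested on simulated counts. Alternatives used other scalings and filters, DESeq2 1.42.0, limma-voom (limma 3.58.1), glmTreat against 1.5-fold, a replicate block and leaving out each library. CPM per library, exon lengths, GC content and shared windows (GENCODE M21, GRCm38, where the 13 mitochondrial genes have the coordinates of the table) and RefSeq promoters were added.

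Members and lists were chosen with earlier results of these data known. Named genes are the mitochondrial members, the 4 tested nuclear members of lowest p in each group, called members of at least 2-fold, restricted isoforms, and the 2 genes of lowest p in each related list. Other genes named were chosen after their values were seen.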

Additional observations from a re-analysis of the deposited data

Results flagged for a closer look

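Of 112 values tested for a library far from the others of its group, 16 stood apart within the 4 day 12 libraries. For a single value chance gives about 1 in 20. Genes within a library are not independent, so the 16 are not separate events to set against that rate. In 15 of them the library was day 12 replicate 4. It was below the others in mt-Nd4 (1246 CPM, others 2648 to 2902), mt-Nd5 (1008, others 2029 to 2238), mt-Nd4l (169.7, others 278.3 to 297.6), Ndufv2 (43.9, others 54.4 to 56.4) and Atp5c1 (96.6, others 115.6 to 118.1). It was above the others in subunits of complex III, with Uqcr10 at 49.4 CPM (others 37.8 to 39.6), Uqcrq at 49.5 (others 29.3 to 32.7), Uqcr11 at 40.8 (others 26.4 to 28.6) and Cyc1 at 83.2 (others 56.9 to 59.4). It was also above them in subunits or assembly factors of complex I, with Ndufs7 at 58.2 CPM (others 33.5 to 37.5), Ndufa13 at 67.1 (others 43.6 to 46.9) and Ndufaf8 at 8.99 (others 5.99 to 6.43). The same held for complexes IV and V, with Cox4i1 at 204.9 CPM (others 151.3 to 160.1), Cox6a1 at 133.2 (others 81.6 to 90.0) and Atp5d at 144.6 (others 79.7 to 82.6). Day 12 replicate 3 stood above the others in Ndufb10, at 49.3 CPM beside 43.8 to 44.4.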

How the results depend on the processing

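Counts of calls moved more than medians. The 34 members that rose became 1 and the 1 that fell became 0 with glmTreat against 1.5-fold, where the counts over all genes, 1616 and 1626, became 609 and 516. DESeq2 called 45 members higher and 2 lower. Leaving out a library gave 14 to 61 members higher, 0 to 2 lower, 857 to 2188 genes higher and 904 to 2414 lower. The most calls higher came without day 12 replicate 4 and the fewest without steady-state replicate 3. The median log2 fold change stayed between 0.31 and 0.42 for nuclear and 0.24 and 0.51 for mitochondrial members over all alternatives. The log2 ratio of the genomes was -0.19 to 0.19, above 0 only without day 12 replicate 4. Adding the chromosome 1 copies, an alternative chosen after seeing the data, left it at -0.08. Of 763 values of named genes under alternatives, 666 kept their direction and side of the threshold, 53 no longer passed, 44 newly passed and 0 changed sign while called. With the replicate number as a block, 58 members rose, 9 of 9 mitochondrial ones and Sdha among them, and 1 fell, where 12.4% and 14.3% of all genes did. The numbers are not stated to mark a shared mouse or day, same-numbered libraries deviated together with correlations of -0.141, 0.008 and 0.203, only number 3 matched its own number best, and day 12 replicate 4 has no partner. The restricted isoforms lie near the floor of 3 counts, where depth limits what can be seen.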

Other observations

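AA467197, a homologue of Ndufa4 that the rule for members did not take and that was chosen after its values were seen, had 1 read in the 3 steady-state libraries together and 96 in the 4 of day 12, with 0.159, 0.628, 0.973 and 0.812 CPM in day 12 replicates 1, 2, 3 and 4. Ndufa4 itself was lowest in day 12 replicates 1 and 3.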
